A study of Mus musculus with 20 samples.

Results

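The smooth muscle contractile apparatus of the embryonic mouse heart was examined through 10 genes chosen by name: Acta2, Tagln, Myh11, Cnn1, Myocd, Smtn, Mylk, Lmod1, Tpm2 and Myl9. All 10 genes were found among the 48795 genes listed for the series, and all 10 were high enough to be tested, which 15304 genes were at a minimum mean normalized count of 10. The hearts were dissected from embryos at E13.5 of mice kept on a C57BL/6J background, and mRNA was sequenced from each of 20 whole hearts. The groups were WT (n = 10), Dp1Tyb (n = 5) and Dp1TybDyrk1a+/+/- (n = 5). Dp1Tyb embryos carry, in every cell, an extra copy of the stretch of chromosome 16 from Lipi to Zbtb21, a model of Down syndrome. Dp1TybDyrk1a+/+/- embryos carry the same duplication together with a loss-of-function allele of Dyrk1a on the duplicated chromosome, which leaves a pair of functional copies of this kinase gene. They were bred as a separate strain, and the labels do not say which WT hearts were littermates of which mutants, so all 10 WT hearts entered each comparison.

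The value of the series in every heart is a log2-transformed normalized count, so a difference of 1 is a doubling. Read totals were not analysed here and the depth of each library is unknown. Dyrk1a itself ran from 11.28 to 11.43 in WT hearts, from 11.65 to 11.75 in Dp1Tyb hearts and from 11.70 to 11.85 in Dp1TybDyrk1a+/+/- hearts. The loss-of-function allele lacks only a pair of exons, so a value for the whole gene does not check it. Both mutant groups lay above every WT heart. A pair of libraries stood apart from the others: WT replicate 6, which had the highest Acta2, Cnn1, Smtn, Tpm2 and Myl9, and Dp1TybDyrk1a+/+/- replicate 2, which had the highest Myh11, Mylk, Lmod1 and Myocd. In the latter heart the 2480 tested genes with a canonical transcript of 6000 bases or more had a median deviation from their own means of 0.0849, against -0.0331 to 0.0258 in the other 19 hearts. Myh11 and Mylk, with canonical transcripts of 6549 and 7824 bases, are among these long genes, and the part of transcript length in their values was not tested.

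Smooth muscle contracts when calcium-bound calmodulin activates myosin light chain kinase, which phosphorylates the regulatory light chain so that smooth muscle myosin can pull on actin filaments. Most genes of this apparatus are switched on by serum response factor bound to a short DNA element, the CArG box, together with the coactivator myocardin. In the embryonic heart the great arteries and the coronary vessels acquire a smooth muscle coat, while several of the same genes, Acta2, Tagln and Myocd among them, are also transcribed in early heart muscle cells. In a bulk sample fewer cells of a type and less RNA per cell cannot be told apart.

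Myh11 (16:14194527-14292188) and Mylk (16:34745199-35002436, both GRCm38.p6) lie on chromosome 16, the chromosome that carries the duplication, but 0 of the 10 genes lie inside the duplicated stretch, which ends at Zbtb21 and begins at position 75540514. The other 8 genes lie on chromosomes 1, 2, 4, 9, 11 and 19. RefSeq promoters of build GRCm38.p6, 250 bases before to 50 bases after a transcript start, were found for 7 of the 10 genes: Acta2, Cnn1, Smtn, Mylk, Lmod1, Tpm2 and Myl9. They were searched for the CArG box, a 10-base element that reads the same kind of sequence on both strands, with CC at its start, GG at its end and A or T at each of the 6 positions between. A whole box was found in 1 of the 7 promoters, that of Myl9, whereas 1.63% of all 32851 promoters held it. Boxes with at most 1 base changed were found in 3 of the 7, those of Acta2, Lmod1 and Myl9, against 21.1% of all promoters. These elements are shown, the box in capitals, because they are the promoter feature through which the family is known to be switched on as a group; the strands are plus for Myl9 and Lmod1 and minus for Acta2.
Myl9, chr2:156775293-156775322, whole box: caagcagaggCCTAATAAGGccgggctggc
Myl9, chr2:156775355-156775384, 1 base changed: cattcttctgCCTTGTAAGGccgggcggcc
Acta2, chr19:34255438-34255467, 1 base changed: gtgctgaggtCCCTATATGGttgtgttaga
Acta2, chr19:34255388-34255417, 1 base changed: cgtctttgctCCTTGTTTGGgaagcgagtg
Lmod1, chr1:135324614-135324643, 1 base changed: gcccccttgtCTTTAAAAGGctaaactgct
Lmod1, chr1:135324639-135324668, 1 base changed: ctgctctgtaCTAAATTTGGtcacgcagcg
A match is a description of these letters and not a binding site, and the absence of a match in the windows of Cnn1, Smtn, Mylk and Tpm2 says nothing beyond those windows.

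The 10 genes covered a wide range of levels. The means given here were taken on the log2 scale and converted back to counts. Compared per kilobase of canonical transcript, the highest mean normalized counts were those of Myl9, the regulatory light chain, at 10300 per kilobase, and Acta2, smooth muscle alpha-actin, at 5740 per kilobase. Tagln, the actin-binding protein transgelin, followed at 2170 per kilobase, and Cnn1, the actin-binding protein calponin, at 1320 per kilobase. Tpm2, beta-tropomyosin, reached 787 per kilobase. The coactivator Myocd and the actin-associated protein Smtn (smoothelin) lay close together at 489 and 474 per kilobase. The lowest were Mylk, myosin light chain kinase, at 106 per kilobase, Myh11, the smooth muscle myosin heavy chain that marks committed smooth muscle, at 78.2 per kilobase, and Lmod1, the actin filament nucleator leiomodin, at 28.0 per kilobase. Of the 10 genes, Myh11 and Mylk also had the largest spread between hearts.

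Myh11 differed severalfold between hearts of the same genotype. In the 10 WT hearts its log2 value ran from 7.85 to 9.89 around a median of 9.04. In Dp1Tyb hearts the values were 9.17, 9.71, 9.66, 9.30 and 8.41. In Dp1TybDyrk1a+/+/- hearts they were 8.98, 10.50, 8.07, 7.82 and 8.05. The hearts of the 3 genotypes overlapped, 1 Dp1TybDyrk1a+/+/- heart was the highest of all 20 and another was the lowest, and the highest heart held 6.41 times the level of the lowest. Within WT alone the range was 4.11-fold. The within-genotype SD of Myh11 was 0.746 on the log2 scale, which ranked 13 among the 15304 tested genes, and it was higher than the SD of each of the 500 tested genes nearest in mean level.

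Mylk varied in the same hearts over a smaller range. Its WT values ran from 9.24 to 10.22 around a median of 9.73. Its Dp1Tyb values were 9.824, 10.003, 10.006, 9.849 and 9.304, and its Dp1TybDyrk1a+/+/- values were 9.59, 10.52, 9.24, 9.13 and 9.29. The same Dp1TybDyrk1a+/+/- heart was again far above its 4 group mates. The within-genotype SD of 0.371 ranked 69, and the whole range was 2.63-fold. Lmod1 ran from 6.67 to 7.01 in WT hearts around a median of 6.83. It was 6.84, 6.99, 6.83, 6.86 and 6.85 in Dp1Tyb hearts and 6.79, 7.15, 6.72, 6.68 and 6.60 in Dp1TybDyrk1a+/+/- hearts. Its SD of 0.137 ranked 900, with a range of 1.46-fold. Of the 3 genes Lmod1 is the least abundant, and the deposited values of weakly expressed genes lie closer to the mean of the gene.

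The other 7 genes varied far less than Myh11 and Mylk. Their within-genotype SDs ran from 0.0566 for Smtn to 0.139 for Tpm2, and their highest and lowest hearts differed by 1.15-fold for Smtn to 1.44-fold for Tpm2. Relative to the 500 genes nearest in mean level, the share with a smaller SD ran from 45% for Smtn to 92.2% for Tpm2. Tpm2 reached 11.73 in WT replicate 6 and 11.67 in Dp1TybDyrk1a+/+/- replicate 2, the libraries that stood apart, and 11.20 to 11.48 in the other 18 hearts. Acta2 ran from 13.83 to 14.21 over all 20 hearts, a range of 1.30-fold beside the 6.41-fold range of Myh11, the myosin that pulls on it.

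**Figure D1:**
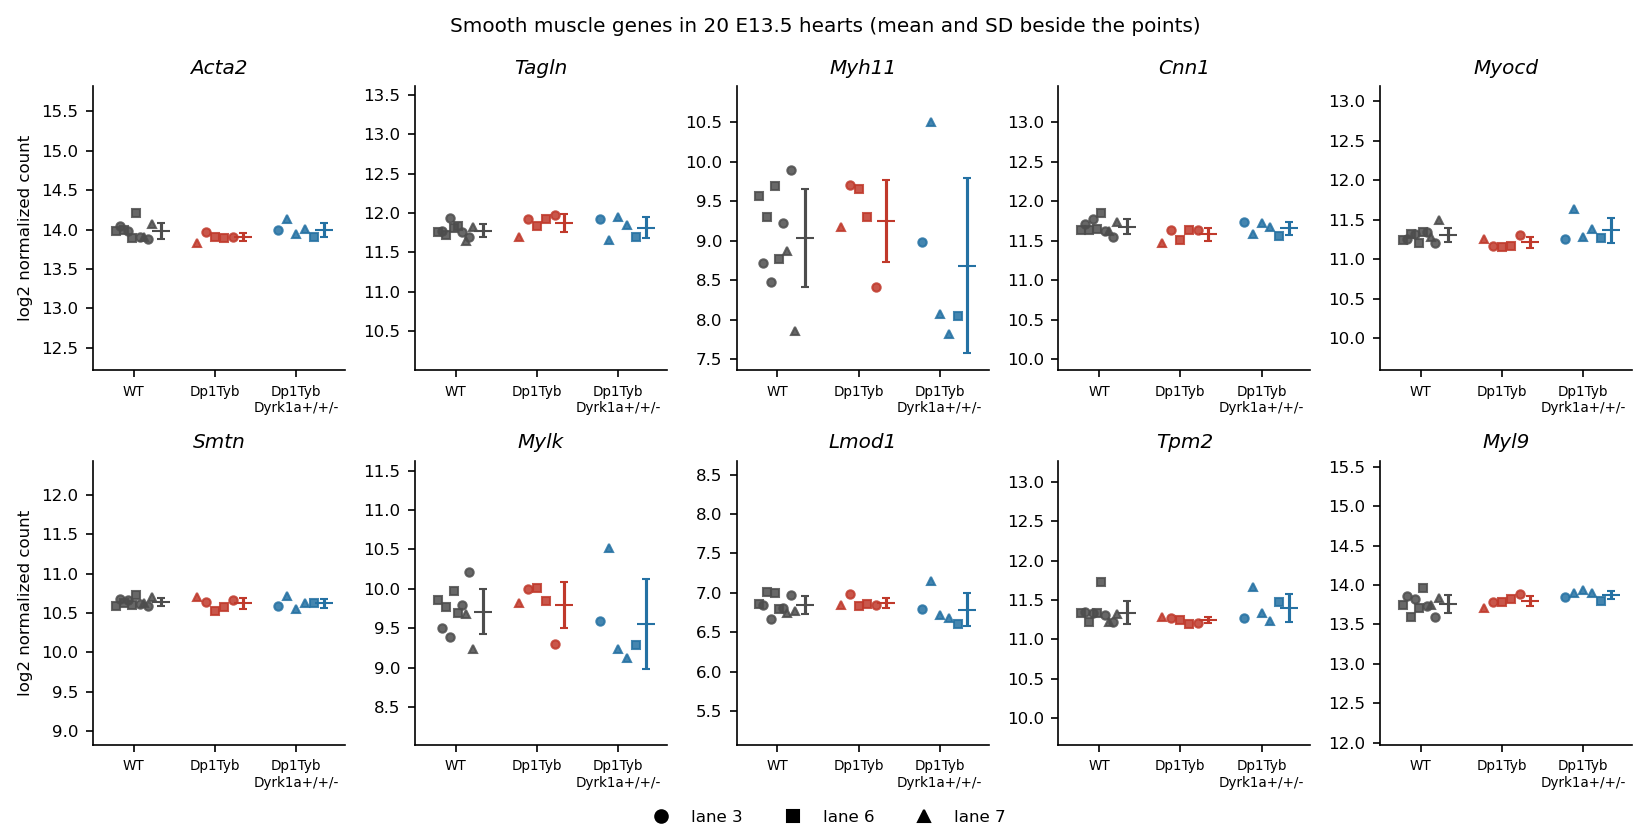
Log2 normalized counts of the 10 smooth muscle genes in each of the 20 hearts by genotype, with the mean and SD beside the points and the sequencing lane as the marker shape; every panel spans the same log2 range. Myh11 spread from 7.82 to 10.50 and Mylk from 9.13 to 10.52, whereas Smtn spread only from 10.53 to 10.73.

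**Figure D2:**
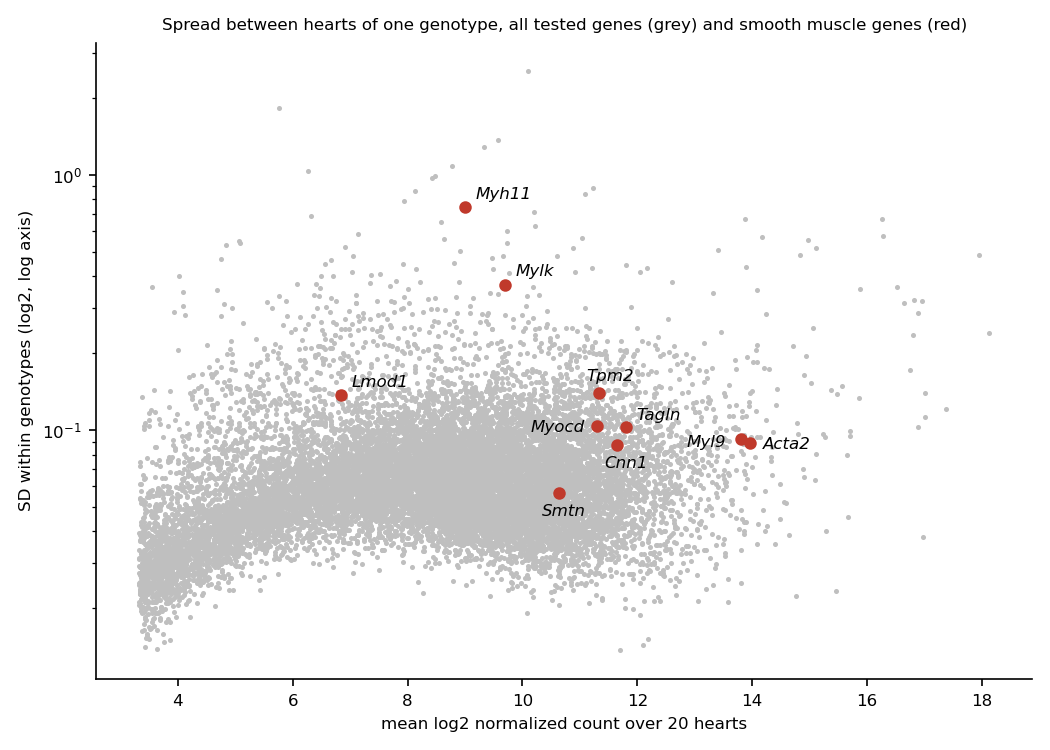
SD within genotypes (log2, log axis) against mean log2 normalized count for all 15304 tested genes in grey and the 10 smooth muscle genes in red. Myh11, with an SD of 0.746, and Mylk, with an SD of 0.371, lay near the upper edge of the cloud, and the other 8 genes had SDs of 0.139 or less.

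The comparison of Dp1Tyb with WT hearts asks whether 3 copies of the duplicated genes alter the smooth muscle programme. By limma's moderated test, fitted over all 15304 tested genes with Benjamini-Hochberg adjustment, 0 of the 10 genes passed an adjusted p of 0.05, where 3.08% of all tested genes passed; at an unadjusted p under 0.05 it was 1 of 10, beside 15.6% of all tested genes. The log2 difference was above 0 for 5 genes and below 0 for 5, and its median was 0.0025 against -0.0019 over all tested genes. The gene nearest to a call was Cnn1. It ran from 11.54 to 11.85 in WT hearts around a median of 11.64 and was 11.47, 11.64, 11.51, 11.64 and 11.64 in Dp1Tyb hearts. In 2 of the 5 Dp1Tyb hearts Cnn1 was lower than in every WT heart, and the other 3 lay within the WT range. The log2 difference was -0.100 (SE 0.0454, 95% CI -0.194 to -0.005, limma adjusted p = 0.292, exact permutation p = 0.0573, two-sided). Exons of Elof1, on the opposite strand, cover 35.1% of the exon bases of Cnn1. A strand setting is not given in the sources used here, so whether reads of these shared bases were assigned by strand is unknown.

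Myocd, the coactivator that drives most of the other genes, ran from 11.21 to 11.50 in WT hearts around a median of 11.30. Its Dp1Tyb values were 11.25, 11.17, 11.16, 11.17 and 11.31. In 3 of the 5 Dp1Tyb hearts it was lower than in every WT heart, by a log2 difference of -0.089 overall (SE 0.0530, limma adjusted p = 0.454, exact permutation p = 0.0400). Acta2 differed by -0.085 (SE 0.0477, limma adjusted p = 0.419) and Tpm2 by -0.096 (SE 0.0700, limma adjusted p = 0.569), which was -0.053 without WT replicate 6. Tagln differed in the other direction, by 0.097 (SE 0.0528, limma adjusted p = 0.397). None of these differences passed the test. For Acta2 the 95% interval of the fold ran from 0.880 to 1.01, and for Smtn, the gene with the narrowest interval, from 0.942 to 1.03. Myh11 differed by 0.215 (SE 0.369, limma adjusted p = 0.847), and its fold interval, 0.682 to 1.98, covered changes that the steadier genes leave outside theirs. With single hearts left out the difference ran from 0.084, without WT replicate 10, to 0.426, without Dp1Tyb replicate 5.

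Dp1TybDyrk1a+/+/- hearts were compared with WT to see the duplication with Dyrk1a back at its normal functional dose. Again 0 of the 10 genes passed, where 0.712% of all tested genes did, and 1 of 10 had an unadjusted p under 0.05, beside 9.64% of all tested genes. The median log2 difference was -0.006 against -0.003 over all tested genes, with 5 genes above 0 and 5 below. The gene nearest to a call was Myl9, the light chain that the kinase phosphorylates. It ran from 13.59 to 13.96 in WT hearts around a median of 13.74 and was 13.85, 13.90, 13.93, 13.90 and 13.80 in Dp1TybDyrk1a+/+/- hearts. The mutant hearts all lay in the upper part of the WT range, above the WT median, and none lay above the highest WT heart. The log2 difference was 0.118 (SE 0.0491, 95% CI 0.016 to 0.220, limma adjusted p = 0.438, exact permutation p = 0.0400). Myh11 differed by -0.349 (SE 0.369, limma adjusted p = 0.773) and Mylk by -0.160 (SE 0.184, limma adjusted p = 0.791). Both values moved by over 1.5 times with single hearts left out. Without Dp1TybDyrk1a+/+/- replicate 2 the difference of Myh11 was -0.804 (SE 0.302, limma adjusted p = 0.272) and that of Mylk was -0.402 (SE 0.142, limma adjusted p = 0.241). Without Dp1TybDyrk1a+/+/- replicate 4, the lowest heart for both genes, they were -0.134 and -0.053. A fit added after seeing the data took the mean log2 value of the airway and foregut markers described below as a covariate. In it the differences were above 0, at 0.159 (SE 0.139) for Myh11 and 0.100 (SE 0.0544) for Mylk.

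The direct comparison of Dp1Tyb with Dp1TybDyrk1a+/+/- hearts asks what the additional functional copy of Dyrk1a changes. The 2 groups were also bred as separate strains, and strain cannot be told apart from Dyrk1a dose here. Lanes were uneven too, with 1 Dp1Tyb and 3 Dp1TybDyrk1a+/+/- hearts in lane 7. Of the 10 genes 0 passed, where 1.16% of all tested genes did, and 1 of 10 had an unadjusted p under 0.05, beside 18.5% of all tested genes. The median log2 difference was -0.0355 against 0.0028 over all tested genes. The gene with the lowest p was Myocd, whose Dp1TybDyrk1a+/+/- values were 11.26, 11.63, 11.28, 11.38 and 11.27 beside the Dp1Tyb values given above. In 4 of the 5 Dp1Tyb hearts Myocd was lower than in every Dp1TybDyrk1a+/+/- heart, and in the fifth it was not. The log2 difference was -0.150 (SE 0.0612, 95% CI -0.278 to -0.023, limma adjusted p = 0.197, exact permutation p = 0.0556). Without Dp1TybDyrk1a+/+/- replicate 2, in which Myocd was highest, the difference was -0.083. Myh11 had the largest difference of the 10, 0.565 (SE 0.426, 95% CI -0.322 to 1.452, limma adjusted p = 0.483, exact permutation p = 0.349). Mylk differed by 0.244 (SE 0.212, limma adjusted p = 0.545). The comparisons share their hearts, so the values of a gene in the 3 comparisons are not independent of each other. The exact permutation tests, 30 in all and not adjusted, can go no lower than 0.000666 with 5 against 10 hearts and 0.00794 with 5 against 5.

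With the hearts weighted by how far they deviate (arrayWeights), 2 of the 10 genes passed in this last comparison: Myh11, with a log2 difference of 1.097 (limma adjusted p = 0.0294), and Mylk, with 0.523 (limma adjusted p = 0.0271). In that fit 8.15% of all tested genes passed, against 1.16% without weights. The lowest weight, 0.0941, fell on Dp1TybDyrk1a+/+/- replicate 2. Leaving that heart out altogether gave 1.019 for Myh11 (limma adjusted p = 0.135) and 0.485 for Mylk (limma adjusted p = 0.131), neither of which passed. With each heart centred on its cardiomyocyte markers, 1 of the 10 genes passed, Myh11 at 0.734 (limma adjusted p = 0.00261), where 0.0784% of all tested genes did. Limma's prior degrees of freedom were infinite in that fit, so genes of like mean level were given a common spread. Within sequencing lanes the difference of Myh11 was 0.083 in lane 3 (2 against 1 hearts), 1.433 in lane 6 (2 against 1) and 0.367 in lane 7 (1 against 3), and with lane as a term of the fit it was 0.444 (SE 0.463, limma adjusted p = 0.698). With the airway and foregut covariate, added after seeing the data, the difference of Myh11 in the same comparison was 0.010 (SE 0.160). That of Mylk was -0.040 (SE 0.0624). The mean of these markers had an r of 0.94 with Myh11 and 0.96 with Mylk within genotypes. A covariate so close to both genes takes up most of their spread, and no other marker list was fitted in this way. The cause was not tested.

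**Figure D3:**
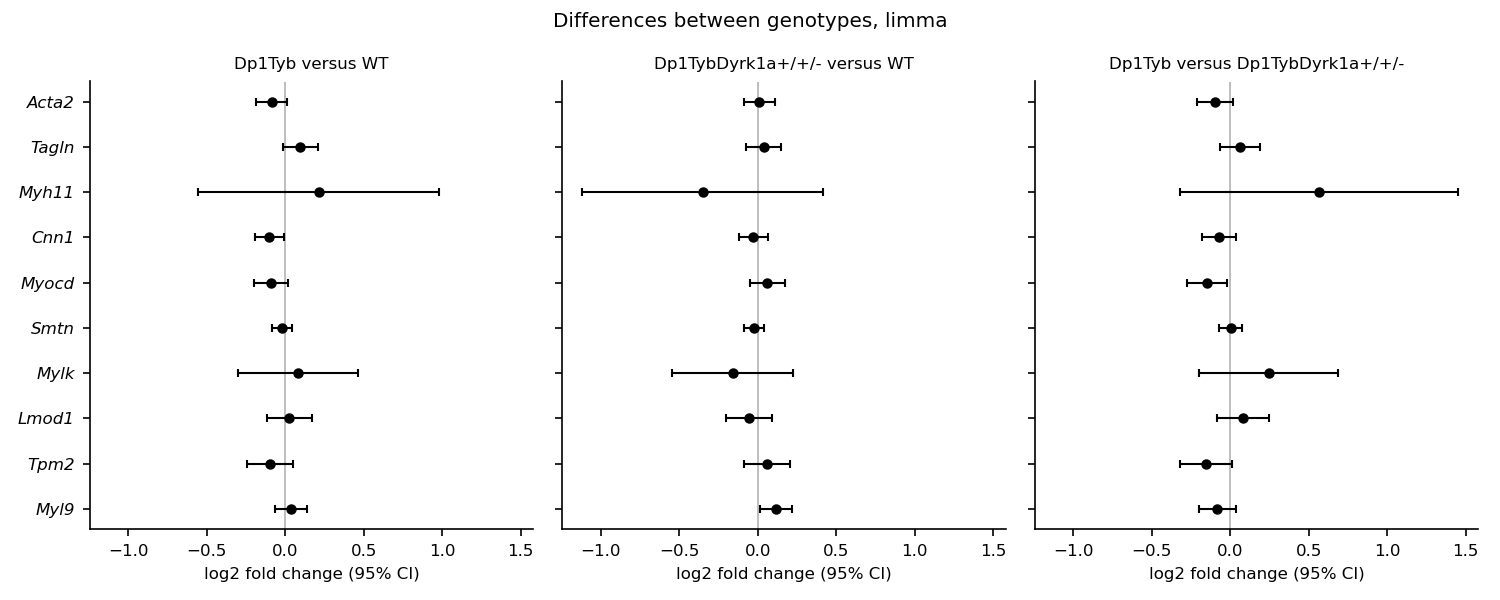
Log2 fold changes of the 10 smooth muscle genes with 95% confidence intervals (limma, all 20 hearts) in the 3 comparisons. The intervals of Myh11 reached from -0.322 to 1.452 in the comparison of Dp1Tyb with Dp1TybDyrk1a+/+/- hearts, those of Smtn only from -0.073 to 0.076.

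The 10 genes did not vary as a single group. After the mean of each genotype was subtracted, Pearson's r over the 20 hearts was 0.98 between Myh11 and Mylk (Spearman's coefficient 0.97) and 0.83 between Myh11 and Lmod1 (Spearman 0.78). Without the 2 hearts farthest from the Myh11 median these values were 0.97 and 0.71. The heart order was nearly the same for both: the 5 hearts with the highest Myh11 were also the 5 with the highest Mylk, and the 5 lowest were the same hearts too. By contrast, the 21 pairs between these 3 genes and the other 7 had a median r of -0.06, from -0.50 to 0.33. Among the other 7 genes the median r was 0.48 over 21 pairs, from -0.17 to 0.84, so these genes were not a single group either. The lowest was Tagln with Smtn, at -0.17 (Spearman -0.06). The closest of these pairs were Tagln with Cnn1, at 0.84 (Spearman 0.93), and Cnn1 with Myl9, at 0.78 (Spearman 0.70). Acta2 with Myl9 gave 0.68 (Spearman 0.63), and Myocd with Smtn gave 0.71 (Spearman 0.72). These are descriptions over the same 20 libraries, which share their depth and normalization.

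The genes whose pattern was most like that of Myh11 over the 20 hearts, among all tested genes outside the 10, were Slitrk6, a transmembrane protein (r = 0.97, Spearman 0.95), Col11a1, a fibrillar collagen chain (0.96, Spearman 0.96), Hhip, a hedgehog-binding protein (0.96, Spearman 0.96), Tshz3, a zinc finger transcription factor (0.96, Spearman 0.98), and Actg2, the actin of visceral smooth muscle (0.96, Spearman 0.97). Within each lane their r with Myh11 stayed at 0.84 or more. Actg2 itself ran from 7.51 to 8.75, and the 5 hearts highest in Myh11 were again the 5 highest in Actg2. The genes most like the mean of the 10 standardized members were Tgfb1i1, a focal adhesion protein (r = 0.94, Spearman 0.82), Ddah1 (0.93, Spearman 0.88), Ywhah (0.93, Spearman 0.82), Gorasp2 (0.93, Spearman 0.80) and the alpha-tubulin gene Tuba1a (0.92, Spearman 0.79). No gene was common to both lists of 5.

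Since the 10 genes were taken to mark the outflow vessels, Myh11, Mylk and Lmod1 were set beside markers of the vessel wall and of other tissues. Of the 6 airway and foregut markers, Cdh1, Epcam, Foxa1, Foxa2, Nkx2-1 and Sftpc, 5 were high enough to be tested, and their r with Myh11 ran from 0.84 for Nkx2-1 to 0.96 for Foxa2. Cdh1, the epithelial cadherin, ran from 6.03 to 7.59, and the 5 hearts highest in Myh11 were also the 5 highest in Epcam, an epithelial adhesion gene. The summed normalized count of the 6 markers was 229 to 483 in WT, 223 to 368 in Dp1Tyb and 220 to 416 in Dp1TybDyrk1a+/+/- hearts. The markers were thus low, and the log2 value of Sftpc was near 1.14. Deposited values of weakly expressed genes lie closer to the mean of the gene, so these sums do not show that every heart held the transcripts. Of the 7 genes of the vessel wall matrix, Eln, the elastin of arterial walls, had an r with Myh11 of 0.53, Mfap5 0.61, Fbln5 0.44, Fbn1 0.25 and Emilin1 -0.22, while Lox reached 0.93 and Mfap4 0.90, within the range of the airway and foregut markers. Eln was highest in WT replicate 3, at 14.74, a heart that ranked 8 in Myh11. The 10 genes are called smooth muscle genes here, since values of a whole heart do not show which vessel or tissue a transcript came from. The part of airway or foregut tissue in the spread of Myh11 and Mylk was not tested.

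Over the mean log2 value of each list, the r of Myh11 was 0.94 with airway and foregut markers, 0.93 with neural crest and glia, 0.90 with fibroblasts, 0.84 with outflow progenitors, 0.80 with vessel wall matrix and -0.78 with cardiomyocytes. Mylk gave 0.96 with airway and foregut, 0.93 with neural crest and glia, 0.84 with fibroblasts and 0.84 with outflow progenitors. It gave 0.72 with vessel wall matrix and -0.76 with cardiomyocytes. Lmod1 gave 0.72 with airway and foregut, 0.70 with neural crest and glia, 0.65 with fibroblasts and 0.63 with outflow progenitors. Its r was 0.82 with vessel wall matrix, 0.84 with the regulators, 0.72 with mural cells and -0.57 with cardiomyocytes. With the regulators Myh11 gave 0.74 and Mylk 0.73, and with mural cells 0.47 and 0.41. Without the 2 hearts farthest from the median of the gene, r with the regulators was 0.67 for Lmod1, 0.51 for Myh11 and 0.44 for Mylk. The other 7 genes had r with the airway and foregut mean from -0.51 for Tagln to 0.26 for Tpm2, with Acta2 at 0.00. Myocd had an r of 0.88 and Smtn of 0.78 with the light chain signalling genes, or 0.71 and 0.74 without the 2 hearts farthest from the median of the gene. With cardiomyocyte markers the r was 0.59 for Myl9, 0.46 for Cnn1 and for Myocd, 0.35 for Smtn, 0.34 for Tagln, 0.27 for Acta2 and -0.04 for Tpm2. Without the 2 farthest hearts these 7 values ran from 0.10 for Tpm2 to 0.55 for Myocd. Skeletal muscle markers were low, the highest being Myog at a mean log2 value of 3.80. Of their 6 genes, 4, including Myod1 and Myf5, had a mean normalized count under 10, and the 6 summed to 30.8 to 32.6 in all hearts. Deposited values of weakly expressed genes lie closer to the mean of the gene, so this even sum does not show that the hearts were alike.

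**Figure D4:**
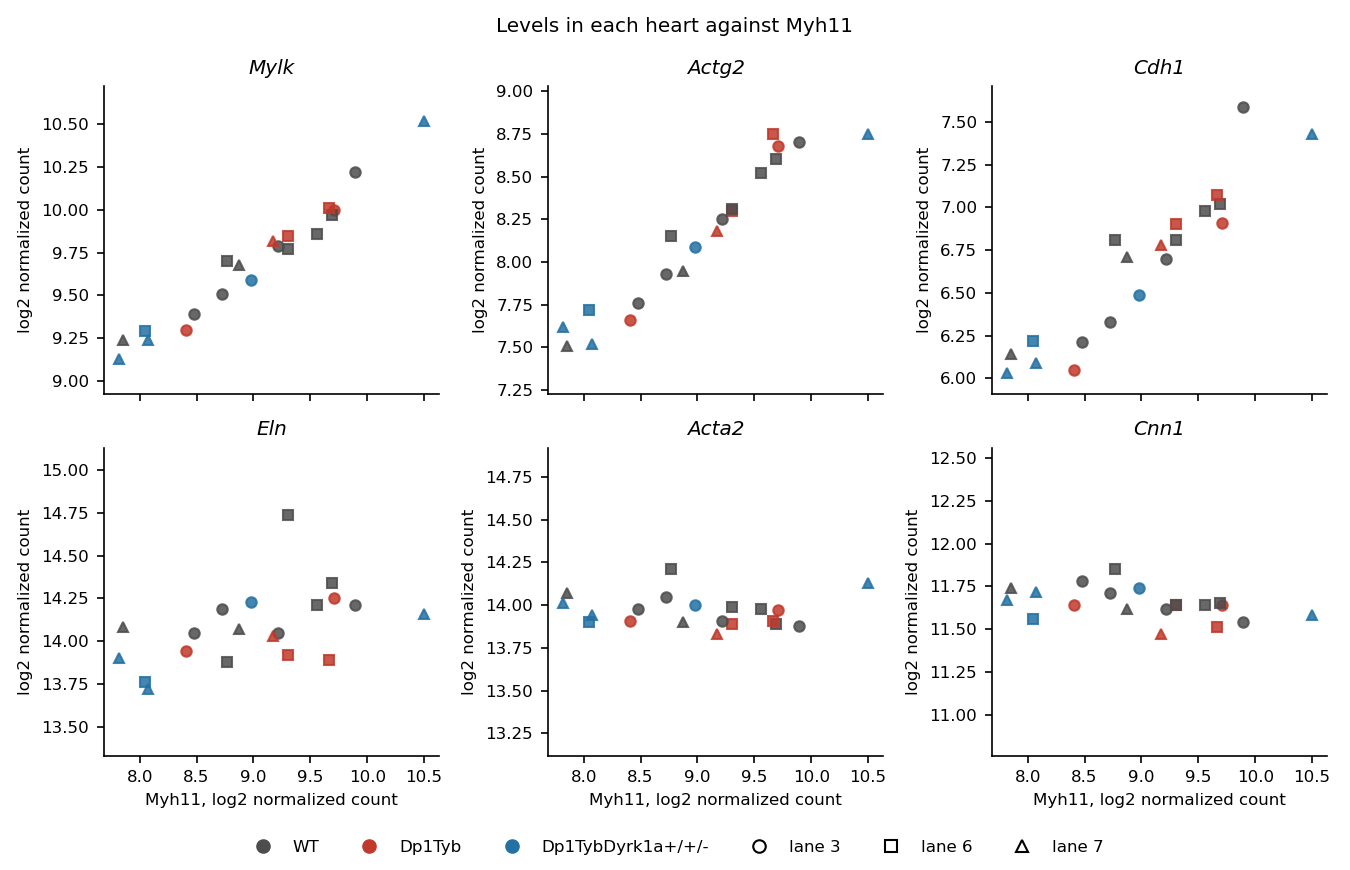
Log2 normalized counts of 6 genes against that of Myh11 in each of the 20 hearts, by genotype (colour) and sequencing lane (shape); every vertical axis spans the same log2 range. Mylk, Actg2 and Cdh1 were higher in hearts with more Myh11 in all 3 genotypes, with r of 0.98, 0.96 and 0.94, beside 0.04 for Acta2 and -0.44 for Cnn1.

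**Figure D5:**
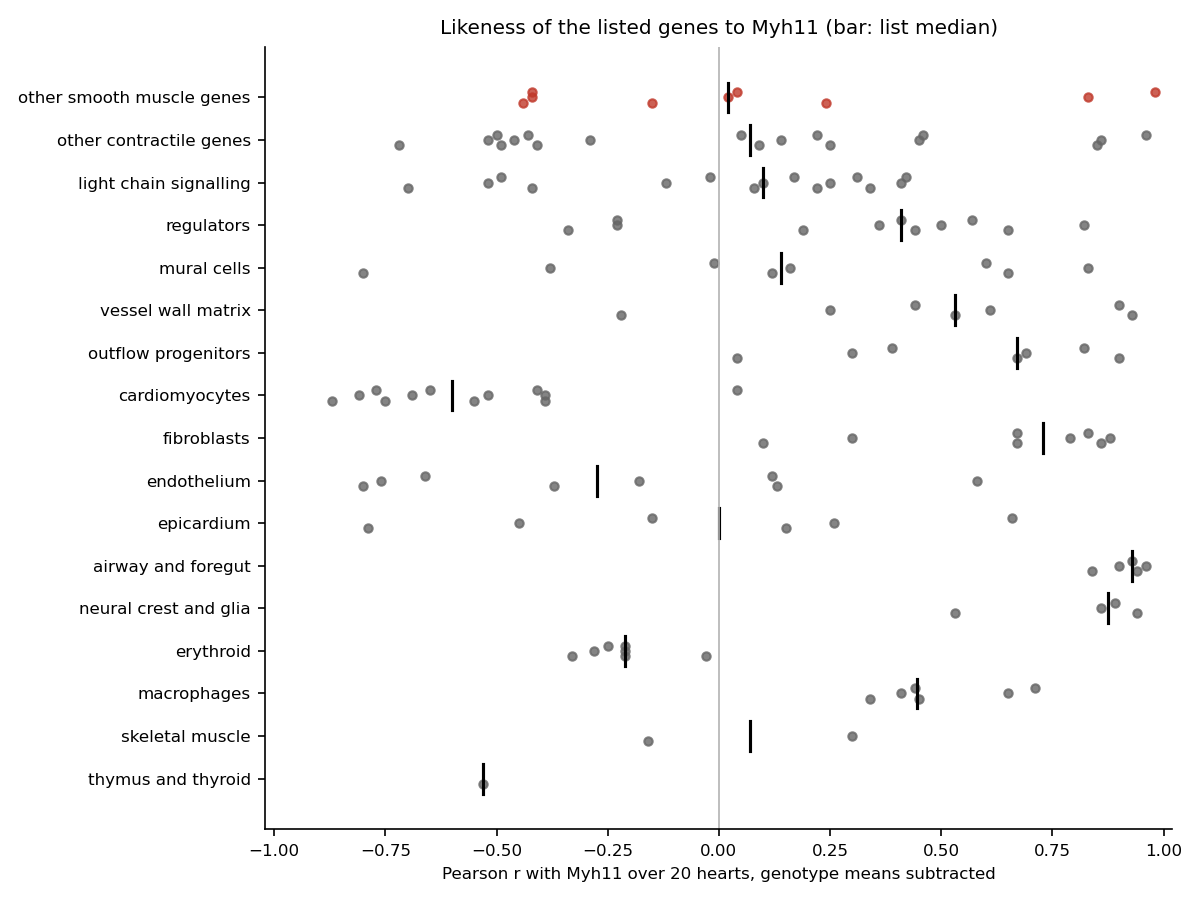
Pearson's r with Myh11 over 20 hearts, after subtraction of the genotype means, for each tested gene of 17 lists, 1 point a gene and a bar at the list median. The 5 airway and foregut genes lay between 0.84 and 0.96, the 7 vessel wall matrix genes between -0.22 and 0.93, and 11 of the 12 cardiomyocyte genes below 0.

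The wider programme around the 10 genes was followed in 6 further lists of 68 genes in all, of which 66 were tested. In each of the 3 comparisons 0 of the 66 passed, where 3.08%, 0.712% and 1.16% of all tested genes did. With shares this low, 0 of 66 is not read as a result about these lists. The 18 other contractile genes, from tropomyosins to filamin, had median log2 differences of 0.009, 0.024 and -0.022 in the order of comparisons above. Their most abundant member, Tpm1, differed by -0.04, 0.10 and -0.14, with limma adjusted p of 0.78, 0.50 and 0.181. The 15 light chain signalling genes, which include calmodulins and myosin phosphatase subunits, had medians of -0.039, 0.034 and -0.071. Their most abundant member, the phosphatase catalytic subunit Ppp1cb, differed by -0.10 between Dp1Tyb and Dp1TybDyrk1a+/+/- hearts (SE 0.0294, limma adjusted p = 0.101).

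The 11 regulators, among them serum response factor, the myocardin-related coactivators and the Notch genes of vessel smooth muscle, had medians of -0.008, -0.021 and 0.021, and the most abundant, Gata6, differed by -0.01, 0.07 and -0.07. Of the 10 mural cell genes 8 were tested, with medians of -0.022, -0.046 and 0.019, and the most abundant, Mcam, differed by -0.01, -0.03 and 0.02. In the 7 vessel wall matrix genes the medians were -0.006, -0.099 and 0.054, and Eln differed by -0.18 (SE 0.108, limma adjusted p = 0.471), -0.23 (SE 0.108, limma adjusted p = 0.508) and 0.05 (SE 0.125, limma adjusted p = 0.85). The 7 outflow progenitor genes had medians of 0.046, 0.011 and 0.073, and Hand2, a transcription factor of outflow tract and right ventricle, differed by 0.03, 0.10 and -0.07. The lowest adjusted p of these lists belonged to Abcc9, a potassium channel subunit from the mural cell list, in Dp1Tyb against WT (log2 difference -0.16, SE 0.0474, limma adjusted p = 0.070). Values of a whole heart do not show which cells its transcripts came from.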

How the data were processed

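RNA of 20 E13.5 hearts was sequenced with a KAPA mRNA HyperPrep kit on an Illumina sequencer. The submitters' processing notes name Trimmomatic 0.36, STAR 2.5.2a, RSEM 1.2.31, DESeq and DESeq2 with build GRCm38; the strand setting is not given in the sources used here. For 48795 genes the authors deposited normalized counts on a log2 scale, in 1 table with 0 columns that belong to no sample; 19473 genes were at 0 in every heart. The authors tested counts with DESeq2. Counts were not analysed here, so limma 3.58.1 in R 4.3.3 was used on the deposited log2 values (a mean for each genotype over all 20 hearts in 1 fit, moderated with an intensity trend). Genes under a mean normalized count of 10, averaged on the log2 scale and converted back, were not tested. Calls needed an adjusted p (Benjamini-Hochberg) under 0.05. Weakly expressed genes lie closer to their own mean, so their log2 differences are understated. RSEM divides reads shared with related genes by estimate, which leaves Acta2, close in coding sequence to the other actins, uncertain to that extent. Opposite-strand genes also overlap exons of members other than Cnn1. Gm48529, which is not in the series, covers 60.7% of the exon bases of Tagln, and Gm11946 covers 18.2% of those of Smtn. Smaller overlaps are those of Acta2 (9.33%, Stambpl1), Myl9 (7.37%, 5730471H19Rik), Mylk (4.87%, E130310I04Rik) and Myocd (1.87%, Gm30586).

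The members and all lists were chosen with earlier results of these data known. The genes named were the 10 members, any gene of the 6 related lists that passed in a comparison (none did), the most abundant gene of each of these lists, and the 5 genes most like Myh11 and most like the mean of the members; other genes named were chosen after their values were seen. Marker lists of other cell types (cardiomyocyte, fibroblast, endothelial, epicardial, skeletal muscle, airway and foregut, thymus and thyroid, erythroid, macrophage, neural crest and glia) held 69 genes, 59 of them tested. In each comparison 0 of the 59 passed, where 3.08%, 0.712% and 1.16% of all tested genes did, in the order given above. Correlations used values with the genotype mean subtracted and carry no p. The labels name separate hearts; replicate numbers are only names. The fits were tested on simulated data. Names and exons came from GENCODE M39, coordinates and promoters from RefSeq GRCm38.p6. Tables were made with pandas 2.3.3 and numpy 2.4.6 under Python 3.11.15, and permutation tests with scipy 1.17.1. Alternatives were other filters, centrings, quantile normalization, limma without trend or with robust moderation, weights per heart, a lane term, only the hearts compared, each heart left out and ratios of mean normalized counts; a joint removal of WT replicate 6 and Dp1TybDyrk1a+/+/- replicate 2 and the airway covariate were added after seeing the data.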

Additional observations from a re-analysis of the deposited data

Results flagged for a closer look

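In 30 sets of a gene and a genotype, 4 had a highest or lowest heart whose distance to its neighbour was large for the range of its group. Chance alone flags about 1 set in 20. The sets share hearts and hold correlated genes, so the 4 are not read as an excess over that rate. Tpm2 was highest in WT replicate 6, at 11.73, with the next WT heart at 11.35. Myocd was highest among WT hearts in WT replicate 10, at 11.50, with the next at 11.35. Mylk was lowest among Dp1Tyb hearts in Dp1Tyb replicate 5, at 9.30, with the next at 9.82; Myh11 was also lowest there, at 8.41. Lmod1 was highest among Dp1Tyb hearts in Dp1Tyb replicate 2, at 6.99, with the next at 6.86.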

How the results depend on the processing

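Of 820 values of a gene under an alternative, 785 kept their direction and, where tested, their side of the threshold. Without single hearts 0 of the 10 genes passed in each comparison, and the calls over all genes ran from 266 to 483, 88 to 158 and 30 to 302. In Dp1Tyb against Dp1TybDyrk1a+/+/- 2 genes passed with weights per heart and 1, Myh11, with centring on cardiomyocyte markers (0.734, adjusted p = 0.00261). In the latter fit, with a spread common to genes of like level, the SE of Myh11 was 0.154 where its own spread gives 0.521; over its alternatives the adjusted p ran from 0.00261 to 0.975, and for Mylk from 0.0271 to 0.756. This centring moved the median of all genes from -0.0019, -0.003 and 0.0028 to 0.135, -0.0359 and 0.172. In Dp1Tyb against WT it turned Acta2 to 0.052, Cnn1 to 0.037, Myocd to 0.047, Smtn to 0.115 and Tpm2 to 0.041. In Dp1TybDyrk1a+/+/- against WT it turned Acta2 to -0.022. In Dp1Tyb against Dp1TybDyrk1a+/+/- it turned Acta2 to 0.074, Cnn1 to 0.097, Myocd to 0.019, Tpm2 to 0.014 and Myl9 to 0.087. Each stayed on its first side of the moved median. Other reversals in Dp1TybDyrk1a+/+/- against WT were Acta2 at -0.006 (quantile normalization), Cnn1 at 0.010 (weights) and 0.011 and Myocd at -0.001 (both outlying hearts left out), and, with the airway covariate, Tagln at -0.001, Myh11 at 0.159, Mylk at 0.100 and Lmod1 at 0.016. In Dp1Tyb against Dp1TybDyrk1a+/+/- they were Smtn at -0.011 (median centring) and Mylk at -0.040 (airway covariate). With single hearts left out, Smtn ran from -0.041 to 0.001 and Lmod1 from -0.002 to 0.045 in Dp1Tyb against WT; Acta2 from -0.024 to 0.036, Myocd from -0.006 to 0.088 and Tpm2 from -0.009 to 0.102 in Dp1TybDyrk1a+/+/- against WT; Smtn from -0.018 to 0.025 in Dp1Tyb against Dp1TybDyrk1a+/+/-. The cause was not tested. Other filters, centrings, weights, covariates or sets of hearts moved the number of all genes passing by over 1.5 times, from 471 to as few as 31 or as many as 1422, from 109 to 4 or 341, and from 178 to 3 or 1247. No paired analysis was possible because the replicate numbers only count the hearts within each genotype and the labels pair no hearts across genotypes.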
